A study of Mus musculus with 33 samples.

Results

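Thyroid hormone signalling was followed through 6 genes besides the receptor gene Thrb: the receptor gene Thra, the deiodinases Dio2 and Dio3, the hormone-binding protein gene Crym, and the hormone-responsive genes Klf9 and Hr. They were taken by gene symbol from the 47729 genes of the count tables, by a rule that uses no measured value, although earlier results of these data were known when the genes were chosen. All 6 passed the filter on low counts that left 18150 genes for testing.

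The study grew retinal progenitor cells of C57BL/6J mice, taken from the retina at embryonic day 14, under conditions meant to yield cones or rods. Untreated cells, cone primed cells and rod primed cells made up day 0, and cone and rod cultures were sampled on days 5, 12, 21 and 35, with 3 libraries in each of 11 groups and 33 libraries in all. The cone arm received COCO, a secreted protein that blocks ligands of the BMP, TGF-beta and Wnt families, and the rod arm received taurine with retinoic acid. The untreated cells received neither, no genetic change separated the groups, and there were no untreated cells after day 0. Total RNA was sequenced, so each value is an average over all cells of a culture. Neither the growth conditions nor the thyroid hormone content of the medium stands in the labels, and nothing in them says that replicates came from separate animals or cultures. The p-values therefore measure the spread between these libraries, which may be technical.

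As background, the thyroid gland releases mainly the prohormone thyroxine (T4), and target tissues set their own level of the active hormone (T3). Type 2 deiodinase, the product of Dio2, turns T4 into T3, and type 3 deiodinase, the product of Dio3, inactivates both. T3 binds nuclear receptors encoded by Thra and Thrb, which pair with retinoid X receptors on DNA, repress target genes without hormone and activate them with it. In the mouse retina this pathway is best known for its part in cone opsin choice through the beta receptor, and Dio3 is known to protect immature cones from excess hormone.

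The upstream sequences of the deiodinase gene Dio2 and the target gene Klf9 are shown because both genes rose in both arms. They come from RefSeq on GRCm38.p6, whose Dio2 start lies upstream of the gene model used for the counts, cover the 250 bases before each annotated start, and run 5′ to 3′ on the strand of the gene. Capitals mark a cAMP response element, TGACGTCA, found by a search of both strands.

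Dio2, chr12:90739039-90739288, minus strand: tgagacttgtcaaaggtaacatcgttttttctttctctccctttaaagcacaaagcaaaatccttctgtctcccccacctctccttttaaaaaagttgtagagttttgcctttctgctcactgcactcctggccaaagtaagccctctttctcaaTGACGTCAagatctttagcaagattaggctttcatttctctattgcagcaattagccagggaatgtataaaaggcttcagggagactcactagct

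Klf9, chr19:23140976-23141225, plus strand: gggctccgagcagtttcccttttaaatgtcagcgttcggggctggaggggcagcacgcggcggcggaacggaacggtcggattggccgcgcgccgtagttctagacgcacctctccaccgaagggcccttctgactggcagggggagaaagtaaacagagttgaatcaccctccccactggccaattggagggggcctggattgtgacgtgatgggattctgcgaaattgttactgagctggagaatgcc

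The Dio2 window held 1 TGACGTCA, a motif present in 1.55% of the 32851 RefSeq windows of the same length. The same search found none in the windows of Klf9 or Dio3. The receptor motifs AGGTCA (14.0% of windows) and GGGTCA (11.6%), and the direct repeat of AGGTCA known as DR4 (0.0152%), which overlaps the first of them by definition, were not found in these 3 windows. Thra, Crym and Hr were not matched in this table. Such matches describe letters in a short window and say nothing about binding.

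Levels are given as CPM, gene counts scaled to library size with the trimmed mean of M-values (TMM), and comparisons between genes as CPM per kilobase of exon. Gene counts per library ranged from 7511837 to 19166442, and the detection floor, set at 3 counts because 0 counts allow up to that many, lay between 0.174 and 0.407 CPM by library. That floor covers counting error only. All 9 retinal progenitor markers on a fixed list (among them Pax6 and Sox2) were above that floor in every untreated and primed library, with summed levels of 958 to 1057 CPM in untreated, 916 to 1118 CPM in cone primed and 1385 to 1741 CPM in rod primed libraries. Photoreceptor markers summed to 620 to 1552 CPM in every library up to day 5 and to 9.38 to 35.5 CPM on day 35. Summed Müller glia markers rose from 556 to 651 CPM in untreated libraries to 2899 to 3284 CPM in cone and 1888 to 2604 CPM in rod libraries on day 35. Of those 7 genes, 5 were above the floor in every untreated library. The progenitor markers summed to 1202 to 1318 CPM on cone day 35 and 1202 to 1472 CPM on rod day 35. In bulk RNA, a change in the share of cells that express a gene and a change in RNA per cell cannot be told apart.

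**Figure D1:**
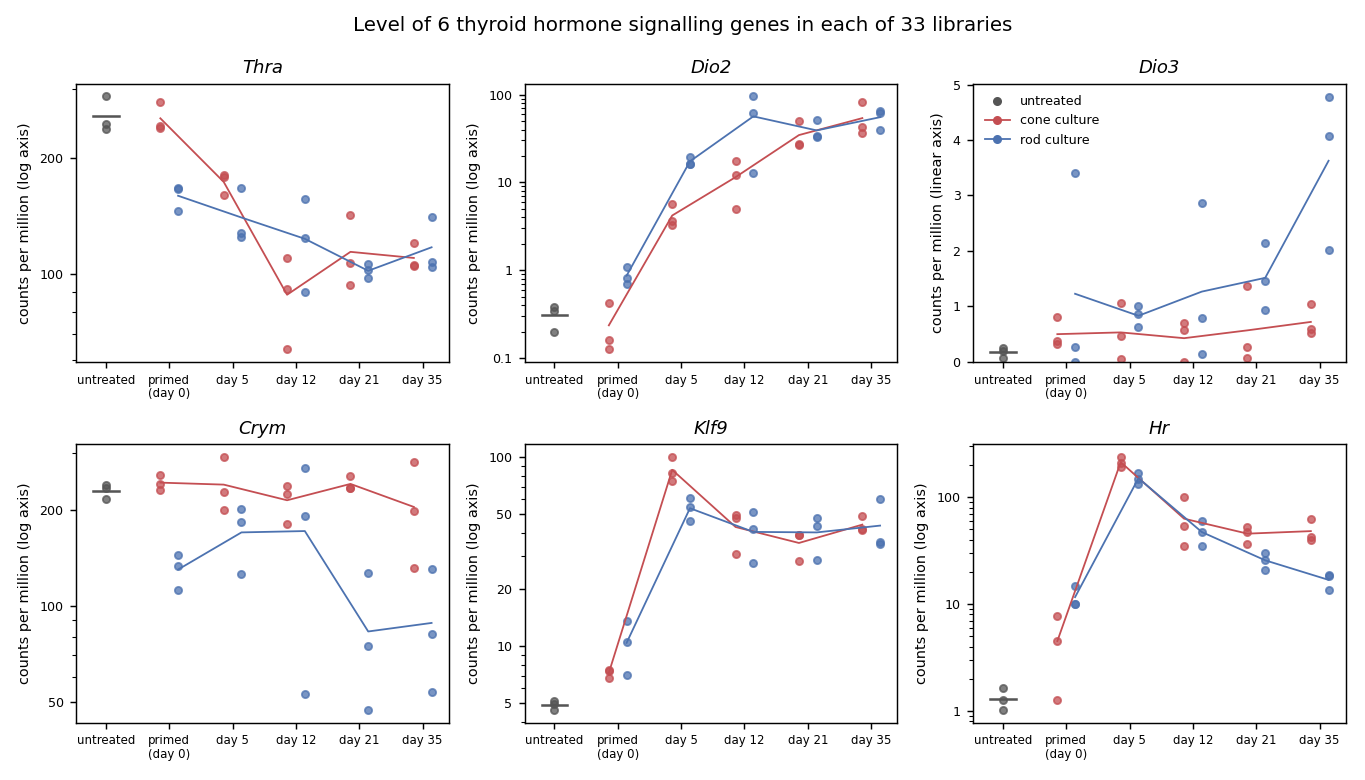
Level in CPM of the 6 genes in each library, by day, with lines through the group means (log axes, except a linear axis for Dio3). Dio2, Klf9 and Hr sit far above untreated cells from day 5 on, Hr peaks on day 5, and rod libraries lie above cone libraries for Dio3 on day 35.

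Genes were tested with edgeR's quasi-likelihood model and called where the p adjusted over all 18150 genes by the Benjamini-Hochberg method was under 0.05, and ± on a log2 fold change is its standard error. Against untreated cells, rod priming moved 3 of the 6 genes (10.3% of all genes were called) and cone priming moved none (0% of all genes), with 1 member, Hr, at an unadjusted p under 0.05 and none called by DESeq2 or voom. Against cone primed cells, 4 of 6 were called on every later day: Dio2, Klf9 and Hr higher and Thra lower. The share of all genes called rose over these days from 22.3% on day 5 to 48.4% on day 12, 52.6% on day 21 and 57.7% on day 35. Against rod primed cells, 3 were called on day 5 (17.5% of all genes), 3 on day 12 (42.4%), 4 on day 21 (50.8%) and 3 on day 35 (55.6%). On the late days a call was therefore as common among all genes as not, and the sizes below carry more than the calls do. Cone and rod cells differed in 2 genes at day 0 (7.27% of all genes), 1 on day 5 (9.28%), 1 on day 12 (10.1%), 1 on day 21 (9%) and 2 on day 35 (12.3%). Over the mean of days 5 to 35 they differed in 4, against 27.8% of all genes. Leaving out 1 library moved the number of all genes called as well, at day 0 from 1320 to between 567 and 1231. Calls lost in such fits, given below, are to be read beside this.

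Dio2 showed the widest range of the 6 genes. It lies at chr12:90724554-90738438 on the minus strand of GRCm38, is protein-coding, and makes the selenoenzyme that activates T4 and is found in brain mainly in glia. Untreated cells held 0.384, 0.2 and 0.34 CPM, cone primed cells 0.126, 0.162 and 0.419 CPM, and rod primed cells 1.09, 0.705 and 0.808 CPM. These are 3 to 5, 1 to 4 and 7 to 9 counts, so Dio2 was at or near the floor before culture, and it was called on neither priming (adjusted p = 0.42 for rod primed cells). Cone cultures then held 3.27, 5.65 and 3.66 CPM on day 5, 12, 17.4 and 5.03 on day 12, 26.4, 50.3 and 27.1 on day 21, and 36.5, 43.3 and 82 on day 35. Rod cultures held 16.2, 19.5 and 16.4 CPM on day 5, 60.9, 12.9 and 95.6 on day 12, 33.4, 51 and 32.8 on day 21, and 61.9, 39.5 and 64.4 on day 35. Every cultured library of either arm was above every day 0 library.

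Dio2 rose against cone primed cells by a log2 fold change of 4.11 ± 0.87 on day 5 (adjusted p = 0.00126) and 7.78 ± 0.76 on day 35 (adjusted p = 1.5e-09). Since those primed cells had so few counts, the mean levels were also set against 3 counts per library, which puts Dio2 13.5-fold above that floor on day 5 and 173-fold above it on day 35. Rod cultures rose by 4.34 ± 0.64 on day 5 (adjusted p = 3.93e-05) and 6.01 ± 0.64 on day 35 (adjusted p = 1.13e-08) against rod primed cells. A difference between the arms was called on days 5 and 12 and not on days 21 and 35. Cone was lower than rod by 2.05 ± 0.49 on the log2 scale on day 5, a fold of 4.13, with no overlap between libraries (adjusted p = 0.00729). Leaving out replicate 1 of cone day 5 gave an adjusted p of 0.0503. On day 12 cone was lower by 2.30 ± 0.47 (adjusted p = 0.00166), although rod replicate 2, at 12.9 CPM, fell among the cone libraries. That rod library stood apart also by photoreceptor markers (876 CPM, against 69.7 and 140 in the others), amacrine or horizontal cell markers (216, against 68.5 and 73.7) and Müller glia markers (1510.0, against 2563 and 2210.1). Without it the difference was -2.77 (adjusted p = 1.81e-05), and with a spread estimated from the day 12 libraries alone the call was lost (adjusted p = 0.203). On day 21 the estimate was -0.17 ± 0.44 (adjusted p = 0.868) and on day 35 -0.03 ± 0.43 (adjusted p = 0.974), with overlapping libraries. Over the mean of days 5 to 35 cone was lower by 1.14 ± 0.23 (adjusted p = 4.08e-04).

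Within the rod arm Dio2 rose further from day 5 to day 35, by 1.67 ± 0.45 (adjusted p = 0.00333), and within the cone arm by 3.68 ± 0.50 (adjusted p = 6.95e-07). From day 5 to day 12 the rod rise was 1.70 ± 0.45 (adjusted p = 0.0092), and it was lost without rod day 12 replicate 3 (adjusted p = 0.121). The cone rise over the same days was 1.45 ± 0.49 (adjusted p = 0.0194) and was lost in 4 of the 6 fits without 1 library (adjusted p 0.0513 to 0.145). In order of mean level, rod day 12 (56.5 CPM), rod day 35 (55.3), cone day 35 (53.9), rod day 21 (39.1) and cone day 21 (34.6) overlapped their neighbours, and the next group, rod day 5 (17.4), lay below them. Müller glia markers rose over the same days, with 7 of 7 genes above the floor in every library from day 12 on, and their part in the result was not tested. Between the arms these markers were lower in cone on day 5, at 1229 to 1430 CPM against 1534 to 1771 CPM in rod libraries. On day 12 they were higher in cone, at 2702 to 3148 CPM against 1510.0 to 2563 CPM in rod libraries. Dio2 was lower in cone on both days. The astrocyte list, 5 genes that include Gfap and Aldh1l1, summed to 235 to 318 CPM in untreated libraries, 295 to 365 on cone day 35 and 306 to 419 on rod day 35.

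Dio3 was close to the detection limit in the cone arm and in untreated cells. It is a short protein-coding gene at chr12:110279068-110281097 on the plus strand, inside an imprinted region, and encodes the enzyme that inactivates T4 and T3. Untreated libraries held 2, 3 and 1 counts, cone primed 3, 10 and 3, and rod primed 2, 0 and 38. Cone cultures held 16, 1 and 8 counts on day 5, 5, 9 and 0 on day 12, 2, 16 and 1 on day 21, and 6, 7 and 13 on day 35. Rod cultures held 9, 12 and 9 counts on day 5, 2, 42 and 11 on day 12, 12, 19 and 33 on day 21, and 48, 25 and 74 on day 35. Rod day 35 was the one group in which every library had at least 25 counts, at 3.63 ± 1.43 CPM (SD, n = 3), and it did not overlap cone day 35.

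Over the mean of days 5 to 35 Dio3 was lower in cone than in rod cultures by 1.48 ± 0.51 on the log2 scale (adjusted p = 0.0313). Without replicate 1 or replicate 3 of every group the adjusted p was 0.0695 and 0.168. No single day passed by edgeR over all libraries: the day 35 estimate was -2.31 ± 0.96 (adjusted p = 0.125, or 0.0224 when fitted to its own 6 libraries), voom called day 21 (adjusted p = 0.0459), and on other days the estimates ran from -0.64 to -1.59. Rod day 35 against rod primed cells gave 1.49 ± 0.92 (adjusted p = 0.175). Leaving out rod primed replicate 3, the library with 38 counts, gave 4.82 (adjusted p = 0.00421). Rod day 35 against rod day 5 gave 2.14 ± 0.95 (adjusted p = 0.065, or 0.00305 in its own libraries and 0.024 by voom). Cultured days were not tested against untreated cells.

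Other genes of the imprinted locus had a pattern of their own. Of 6 listed genes 4 were tested (Dlk1, Meg3, Rian and Mirg), and 3 of those 4 fell on rod priming, where 10.3% of all genes were called. Meg3, a long noncoding RNA expressed from the maternal chromosome, had 242 ± 44.7 CPM in untreated and 89.2 ± 6.64 CPM in rod primed cells (SD, n = 3), a log2 fold change of -1.44 ± 0.44 (adjusted p = 0.034). Rian fell by 1.24 ± 0.29 (adjusted p = 0.00606) and Mirg, a host of microRNAs, by 1.68 ± 0.46 (adjusted p = 0.0182). Against rod primed cells these 3 genes then rose on day 5 (17.5% of all genes called), all 4 rose on day 12 (42.4%), and Mirg and Rian rose on day 21 (50.8%). The day 12 rise was 2.00 ± 0.44 for Meg3 (adjusted p = 6.79e-04) and 1.74 ± 0.29 for Rian (adjusted p = 2.66e-05), and Dlk1, a paternally expressed Notch-like ligand, was called on this day alone in the rod arm against primed cells (adjusted p = 2.79e-04). On rod day 35 none of the 4 was called by edgeR (55.6% of all genes), and none had an unadjusted p under 0.05. From day 5 to day 35 Meg3 and Rian fell in the rod arm (49.5% of all genes called). Over the same days Meg3, Mirg and Rian fell in the cone arm (58.9%). Against cone primed cells Rian was called higher on day 5 (22.3%) and lower on day 35 (57.7%), Dlk1 higher on day 21 (52.6%), and none on day 12 (48.4%).

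Crym stayed between 132 and 292 CPM in cone cultures and was lower in late rod cultures. It lies at chr7:120186380-120202111 on the minus strand and encodes mu-crystallin, an NADPH-dependent cytosolic protein that binds T3. Untreated libraries held 234, 238 and 215 CPM, cone primed 240, 257 and 231, and rod primed 133, 144 and 112. Cone cultures held 200, 292 and 226 CPM on day 5, 180, 223 and 238 on day 12, 255, 233 and 234 on day 21, and 132, 282 and 197 on day 35. Rod cultures held 201, 183 and 125 CPM on day 5, 269, 53.1 and 191 on day 12, 127, 75.1 and 47.3 on day 21, and 130, 53.9 and 81.5 on day 35. The lowest cone library of days 5 to 35 was thus level with the highest rod libraries of days 21 and 35, and no comparison of a cone or rod day with its own primed cells was called.

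Crym was higher in cone than in rod cultures on day 21, by 1.53 ± 0.39 (adjusted p = 0.0113, a fold of 2.89), and on day 35, by 1.20 ± 0.38 (adjusted p = 0.0374). The libraries of the arms did not overlap on either day. The day 21 call was lost without rod replicate 2 (adjusted p = 0.0566) or 3 (0.0833), the day 35 call without cone replicate 2 (0.185) or 3 (0.0745) or rod replicate 2 (0.162) or 3 (0.121), and on the deposited TPM values the day 21 estimate was -0.73. Over the mean of days 5 to 35 the difference was 0.89 ± 0.19 (adjusted p = 7.9e-04, or 0.073 without replicate 3 of every group). Rod primed cells had lower values than all untreated and cone primed libraries, at a log2 fold change of -0.82 ± 0.38 against untreated cells that was not called (adjusted p = 0.181). It was called by voom (adjusted p = 0.0312) and in the compared libraries alone (8.10e-04), as was cone minus rod at day 0 (0.0184 and 0.00105). Within the rod arm Crym fell from day 5 to day 35 by 0.94 ± 0.38 (adjusted p = 0.0426), a call lost without rod day 5 replicate 1 or 2 or rod day 35 replicate 2 or 3 (adjusted p 0.0996 to 0.182). Amacrine and horizontal cell markers were also lower on rod priming, at 507 to 620 CPM in untreated and 249 to 315 CPM in rod primed libraries. In the cone arm they went from 529 to 563 CPM in primed cells to 118 to 151 CPM on day 35. Crym gave -0.25 ± 0.38 on cone day 35 against primed cells (adjusted p = 0.59). The part of these markers in either arm was not tested.

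Thra fell in both arms. It lies at chr11:98740638-98769006 on the plus strand and encodes the alpha receptor, together with a splice form that does not bind hormone, which gene counts do not separate. Its 3′ end overlaps Nr1d1 on the opposite strand by 1075 bases, 263 of them exonic. The strand setting of the counting was not given in the sources used here, so reads of the shared stretch cannot be told apart. Nr1d1 itself had 87 to 738 counts per library.

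Untreated libraries held 237, 288 and 245 CPM of Thra, cone primed 238, 241 and 278, and rod primed 166, 166 and 145, so that every rod primed library lay below the others. Cone cultures held 181, 179 and 160 CPM on day 5, 91.3, 110 and 63.9 on day 12, 93.8, 142 and 107 on day 21, and 105, 105 and 120 on day 35. Rod cultures held 125, 128 and 167 CPM on day 5, 89.8, 156 and 124 on day 12, 97.5, 106 and 102 on day 21, and 140, 104 and 108 on day 35. Untreated and cone primed cells were highest, and from day 12 on the arms shared a range of 63.9 to 156 CPM.

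Rod priming lowered Thra by 0.69 ± 0.18 on the log2 scale (adjusted p = 0.0145), and cone primed cells were above rod primed cells by 0.66 ± 0.18 (adjusted p = 0.0239), while cone priming gave -0.02 ± 0.18 (adjusted p = 1.0). The first of these calls was lost without untreated replicate 2 (0.0856) or rod primed replicate 3 (0.0839), and the second without cone primed replicate 3 (0.122) or rod primed replicate 1 (0.0524), 2 (0.0521) or 3 (0.122). Against cone primed cells Thra fell by 1.51 ± 0.18 on day 12 (adjusted p = 1.45e-07) and by 1.20 ± 0.18 on day 35 (adjusted p = 2.89e-06). Its fall of 0.55 ± 0.18 on day 5 (adjusted p = 0.0293) was lost in 5 of 6 fits without 1 library (adjusted p 0.0574 to 0.145). Against rod primed cells it fell by 0.64 ± 0.18 on day 21 (adjusted p = 0.00438) and 0.44 ± 0.18 on day 35 (adjusted p = 0.0398), the latter lost in 4 of 6 such fits (0.09 to 0.135). By edgeR no day after day 0 separated the arms, the nearest being day 12 at -0.48 ± 0.18 (adjusted p = 0.0951). Voom called that day, at -0.44 (adjusted p = 0.023). On the authors' deposited TPM values the time course ran the other way: mean TPM was 6.44 in cone primed cells and 17.3 on cone day 35, and 4.36 in rod primed cells and 13.1 on rod day 35. Nr1d1, which encodes the repressor REV-ERB alpha, rose in counts by 1.75 ± 0.15 on cone day 35 (adjusted p = 2e-10) and 2.15 ± 0.16 on rod day 35 (adjusted p = 1.88e-11).

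Klf9 was low in every day 0 group and several-fold higher from day 5 on. It lies at chr19:23141226-23166911 on the plus strand and encodes a zinc-finger repressor that T3 induces directly through its receptor and that glucocorticoid induces as well. Untreated libraries held 4.99, 5.14 and 4.62 CPM, cone primed 6.8, 7.44 and 7.54, and rod primed 13.7, 7.05 and 10.6. All 6 primed libraries lay above all 3 untreated ones. Cone cultures held 82.1, 100 and 74.9 CPM on day 5, 47.7, 49.8 and 30.9 on day 12, 28.2, 38.6 and 38.9 on day 21, and 41.8, 41.3 and 49 on day 35. Rod cultures held 46.1, 60.9 and 54.3 CPM on day 5, 27.7, 51.3 and 41.9 on day 12, 28.6, 48 and 43.6 on day 21, and 35.8, 60.2 and 34.6 on day 35. The lowest cultured library, at 27.7 CPM, stood above the highest primed one, at 13.7 CPM.

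Klf9 rose on day 5 by 3.56 ± 0.27 in the cone arm (adjusted p = 1.42e-09) and by 2.38 ± 0.26 in the rod arm (adjusted p = 7.74e-07), each against its own primed cells. From day 5 to day 12 it then fell in the cone arm by 1.00 ± 0.24 (adjusted p = 0.00121). In the rod arm the same step gave -0.42 ± 0.24 (adjusted p = 0.237). It stayed above primed cells at day 35, by 2.60 ± 0.27 in cone (adjusted p = 3.91e-09) and 2.07 ± 0.26 in rod cultures (adjusted p = 1.64e-07). On day 5 no cone library overlapped a rod library, and the difference of 0.67 ± 0.23 had an adjusted p of 0.0735, or of 0.0456 by DESeq2. On days 12 to 35 the arms overlapped, with estimates between -0.18 and 0.08.

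Rod priming raised Klf9 by 1.08 ± 0.28 (adjusted p = 0.0134) against untreated cells. That call was lost without untreated replicate 3 (0.0579), rod primed replicate 1 (0.0799) or rod primed replicate 3 (0.0525), and on deposited TPM the estimate was -0.18. Cone priming gave 0.57 ± 0.28 (adjusted p = 1.0). Of 5 genes listed because glucocorticoid induces them (Fkbp5, Tsc22d3, Sgk1, Per1 and Zbtb16), none was called by edgeR, DESeq2 or voom on either priming, and 0 had an unadjusted p under 0.05. Over all genes, edgeR called 0% on cone priming and 10.3% on rod priming. On day 5 against primed cells, 2 of the 5 fell in the cone arm, where 22.3% of all genes were called, and 3 fell in the rod arm, where 17.5% were. Fkbp5, a chaperone partner of the glucocorticoid receptor, fell by 0.94 ± 0.17 in cone (adjusted p = 2.18e-04) and 0.76 ± 0.17 in rod cultures (adjusted p = 0.00218) on day 5. On days 12, 21 and 35 the list was mixed: Sgk1 was called higher against primed cells on every one of them in both arms, Per1 on all but cone day 21, and Fkbp5 and Zbtb16 lower throughout. On day 35, Sgk1 rose by 3.08 ± 0.29 in cone (adjusted p = 6.55e-10) and 2.97 ± 0.29 in rod cultures (adjusted p = 2.67e-09). Any part of glucocorticoid in the level of Klf9 was not tested.

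Hr had the sharpest peak of the 6 genes. It lies at chr14:70552212-70573548 on the plus strand and encodes hairless, a nuclear corepressor that T3 induces directly in developing brain and that binds thyroid hormone receptors. Untreated libraries held 1.02, 1.27 and 1.63 CPM, cone primed 1.26, 4.53 and 7.75, and rod primed 10, 14.8 and 10.1. Cone cultures held 193, 237 and 207 CPM on day 5, 53.6, 100 and 35.1 on day 12, 36.3, 47.3 and 53.1 on day 21, and 40, 42.2 and 62.2 on day 35. Rod cultures held 133, 149 and 169 CPM on day 5, 34.9, 46.9 and 59.8 on day 12, 21, 25.8 and 30.3 on day 21, and 18.2, 13.7 and 18.7 on day 35. Day 5 stood above every other day in both arms, and rod libraries then went down day by day while cone libraries of days 12, 21 and 35 overlapped.

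Rod priming raised Hr by 3.11 ± 0.44 against untreated cells (adjusted p = 3.09e-05), a fold of 8.61 with all libraries apart. Cone priming gave 1.77 ± 0.48 (unadjusted p = 0.00103, adjusted p = 1.0), with cone primed replicate 1 inside the untreated range. Cone primed cells were below rod primed cells by 1.34 ± 0.39 (adjusted p = 0.0333). This call was lost without cone primed replicate 1 (0.152) or 2 (0.0808) or rod primed replicate 2 (0.138) or 3 (0.0622), and with the spread taken from these 6 libraries alone (0.0859).

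From primed cells to day 5 Hr rose by 5.53 ± 0.40 in cone (adjusted p = 6.95e-10) and by 3.69 ± 0.36 in rod cultures (adjusted p = 1.28e-07), folds of 46.1 and 12.9. From day 5 to day 35 it fell by 2.14 ± 0.32 in cone (adjusted p = 3.05e-06) and by 3.16 ± 0.34 in rod cultures (adjusted p = 3.43e-08). By day 35 rod cultures were no longer called against rod primed cells (0.53 ± 0.34, adjusted p = 0.194), while cone cultures were higher than cone primed cells by 3.38 ± 0.38 (adjusted p = 1.62e-08). On day 35 cone exceeded rod by 1.51 ± 0.33, a fold of 2.85 with no overlap (adjusted p = 0.00245). The earlier estimates were 0.50 ± 0.31 on day 5, 0.42 ± 0.31 on day 12 and 0.83 ± 0.32 on day 21 (adjusted p 0.354, 0.476 and 0.108). On days 5 and 21 the libraries of the arms did not overlap. Fitted by edgeR to its own libraries, day 5 had an adjusted p of 0.0155 and day 21 of 0.0322, and voom called day 21 (adjusted p = 0.0218). Averaged over days 5 to 35 the difference was 0.82 ± 0.16 (adjusted p = 3e-04).

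**Figure D2:**
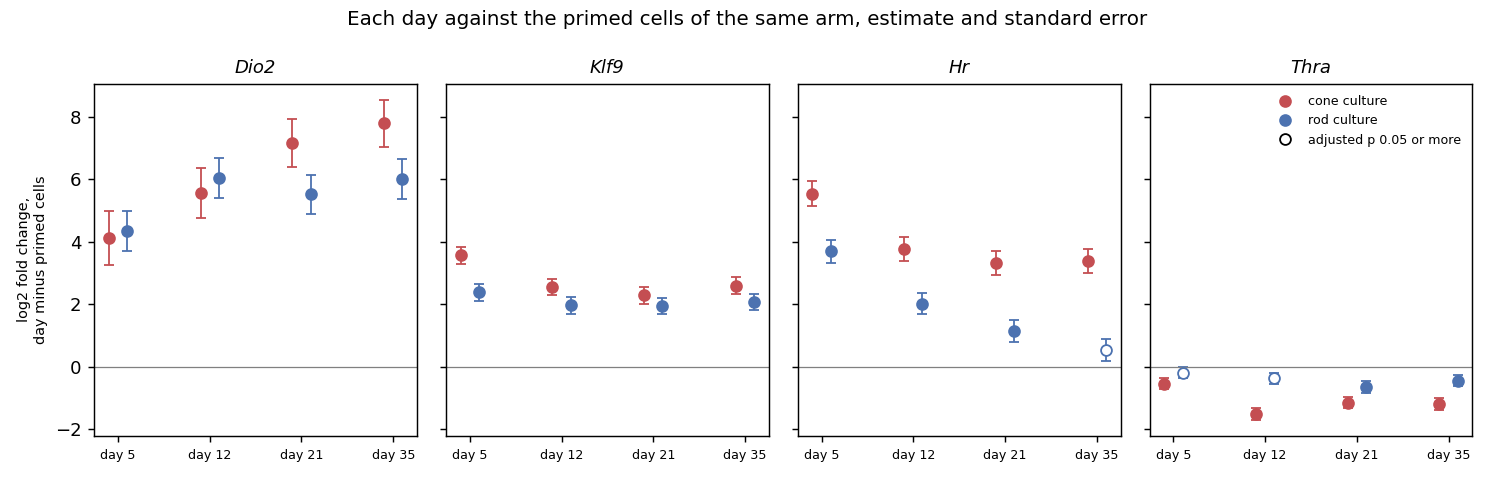
Log2 fold change of 4 genes on each day against primed cells of the same arm, with standard errors, cone in red and rod in blue, open where the adjusted p is 0.05 or more. Hr and Klf9 are highest on day 5 and Dio2 climbs to day 35 in the cone arm, where its estimate reaches 7.78.

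Both responsive genes had their highest group mean on day 5 in each arm, and the fall after day 5 was called for Hr in both arms and for Klf9 in the cone arm. From rod day 5 to day 35 Klf9 gave -0.31 (adjusted p = 0.291), with overlapping libraries. Of the 6 genes, 4 were called from day 5 to day 12 in the cone arm (43.2% of all genes) and 2 in the rod arm (18.3%), Dio2 higher and Hr lower in both. From day 5 to day 35, 4 were called in the cone arm (58.9% of all genes) and 3 in the rod arm (49.5%). Klf9 kept the same range in both arms after day 5, with group means of 35.2 to 44.0 CPM. Hr ended at 48.2 CPM in cone and 16.9 CPM in rod cultures. Dio2 and Hr both rose from primed cells to day 5 in each arm, and from day 5 to day 35 Dio2 rose while Hr fell. Any link between them was not tested. These comparisons share libraries and are set side by side only.

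**Figure D3:**
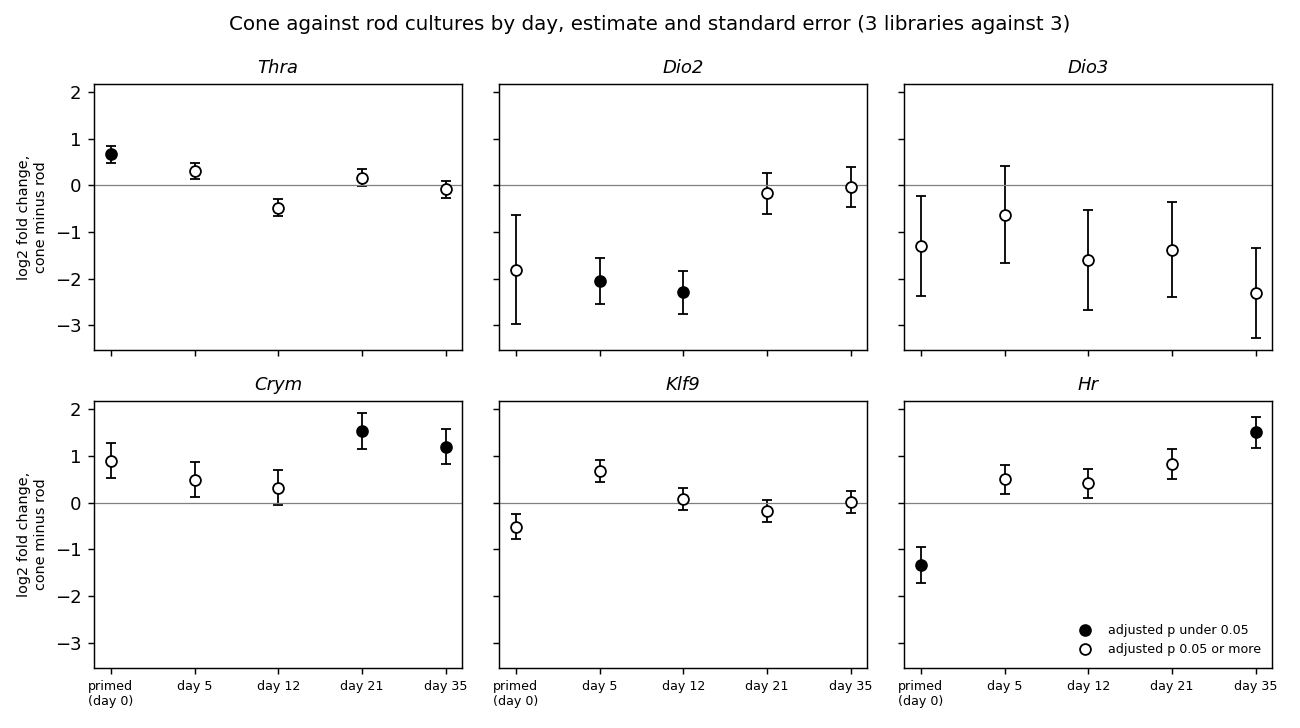
Log2 fold change of cone minus rod at each day with standard errors for the 6 genes, filled where the adjusted p is under 0.05. Dio2 is below 0 up to day 12 and near 0 afterwards, Hr crosses from -1.34 in primed cells to 1.51 on day 35, and Crym is highest on day 21.

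Whether the difference between the arms changed with day was tested over day 0 and the 4 later days in 1 test per gene. Of the 6 genes 3 were called, Hr (adjusted p = 0.00641), Thra (0.0306) and Dio2 (0.0368), against 9.22% of all genes. Klf9 (0.157), Crym (0.379) and Dio3 (0.901) were not called. With replicate 1, 2 or 3 left out of every group the adjusted p of Hr was 0.0636, 0.0823 and 0.0583, and that of Thra 0.0679, 0.0627 and 0.556. For Dio2 it was 0.271 without replicate 1 and 0.616 without replicate 3. With a replicate left out, 54 to 1322 of all genes were called, against 1674 with all libraries. By voom Dio2 was lost (0.592) and Crym gained (0.00416).

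Per kilobase of exon, group means ran from 24.5 to 71.6 CPM per kb for Crym and from 19.2 to 55.6 for Thra, the genes present in every group at similar levels. They ran from 0.189 to 30.7 CPM per kb for Hr, from 1.02 to 17.8 for Klf9, from 0.0405 to 9.71 for Dio2 and from 0.0860 to 1.79 for Dio3. The other receptor gene, Thrb, had 1.97 to 9.28 CPM per kb over the same groups. The spread from lowest to highest group mean was 2.9-fold for Thra and 2.92-fold for Crym, but 17.4-fold for Klf9 and 163-fold for Hr.

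The rest of the pathway was followed on a list of 33 genes, of which 27 were tested. Rod priming raised 4 of the 27 and lowered none, where 10.3% of all genes were called. Cone priming called none of them by edgeR (0% of all genes), DESeq2 or voom, with 1 at an unadjusted p under 0.05. By day 35, 12 had risen and 8 fallen against cone primed cells, and 8 risen and 6 fallen against rod primed cells, where 57.7% and 55.6% of all genes were called. Over the mean of days 5 to 35, 6 were higher and 7 lower in cone than in rod cultures, where 27.8% of all genes were called. The median log2 fold change of the 27 genes in that comparison was 0.0010, and over all genes 0.011.

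Among the genes of transport into cells, Slc7a8, which encodes an amino acid carrier that also moves thyroid hormone, rose against primed cells on day 35 in both arms, by 2.17 ± 0.30 in cone (adjusted p = 5.16e-07) and 1.84 ± 0.29 in rod cultures (adjusted p = 5.27e-06). Slc7a5 was higher in cone over the mean of days by 0.35 ± 0.12 (adjusted p = 0.0341), Slc16a10 was called in none of these comparisons, and Slco1c1, with at most 10 counts, was not tested. Ttr, the plasma carrier transthyretin, was at 0 to 6 counts in untreated libraries, rose on rod priming and reached 16.8 ± 4.45 CPM on rod day 35, against 1.00 ± 0.42 CPM in cone cultures. It was lower in cone over the mean of days by 4.31 ± 0.33 (adjusted p = 1.75e-10). Ttr is also on the pigment epithelium marker list of 6 genes, of which Rpe65 was at 0 in every library of most groups. With Ttr included, that list summed to 4.14 to 8.67 CPM in untreated libraries, 21.1 to 33.2 on cone day 35 and 25.7 to 31.4 on rod day 35. Dio1, the third deiodinase, had at most 2 counts in any library.

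Among the receptors, Thrb fell against primed cells by day 35 in cone (-1.22 ± 0.43, adjusted p = 0.0158) and in rod cultures (-2.05 ± 0.43, adjusted p = 2.54e-04), as Thra did. Rxrg, the retinoid X receptor of cones, went from 13.0 ± 2.25 CPM in cone primed and 9.63 ± 2.59 CPM in rod primed cells to 0.111 CPM on cone day 35 and 0 counts in every library of rod day 35. Rxra was higher in cone over the mean of days by 0.48 ± 0.09 (adjusted p = 2.05e-04), and Rxrb gave 0.06 ± 0.07 (adjusted p = 0.61). Of 9 coregulators, 2 were higher and 3 lower in cone over the mean of days, where 27.8% of all genes were called. Ncoa3, a coactivator, was lower by 0.45 ± 0.04 (adjusted p = 6.06e-09), and Tbl1xr1, of the corepressor complex, was higher by 0.29 ± 0.05 (adjusted p = 1.86e-05).

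Of 6 target genes known from brain or liver, 2 rose and 2 fell against cone primed cells on day 35, and 3 rose and 2 fell against rod primed cells (57.7% and 55.6% of all genes called). Thrsp, a lipogenic gene of liver, rose by 5.08 ± 0.56 in cone (adjusted p = 1.59e-08) and 6.12 ± 0.55 in rod cultures (adjusted p = 6.77e-10). Me1, encoding malic enzyme, rose by 2.74 ± 0.20 in cone (adjusted p = 5.9e-12) and 3.54 ± 0.20 in rod cultures (adjusted p = 2.68e-13). Mbp, a myelin gene, fell by 3.56 ± 0.54 (adjusted p = 2.64e-06) and 4.83 ± 0.64 (adjusted p = 3.92e-07), and Pcp2 by 4.11 ± 0.68 (adjusted p = 9.52e-06) and 4.27 ± 0.69 (adjusted p = 8.49e-06). Mbp is also on the oligodendrocyte list of 5 genes. With Mbp included, it summed to 35.9 to 47.9 CPM in untreated libraries, 12.7 to 16.5 on cone day 35 and 4.61 to 9.60 on rod day 35. Of these genes 3 were above the floor in every untreated library, 4 on cone day 35 and 2 on rod day 35. Sox10 was at 0 in every library of several groups. None of the 6 was called on either priming by edgeR or DESeq2, and 0 had an unadjusted p under 0.05, while voom called 1 on rod priming. By edgeR, 0% of all genes were called on cone priming and 10.3% on rod priming. Thrsp and Me1 were highest on late days, unlike Hr and Klf9.

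**Figure D4:**
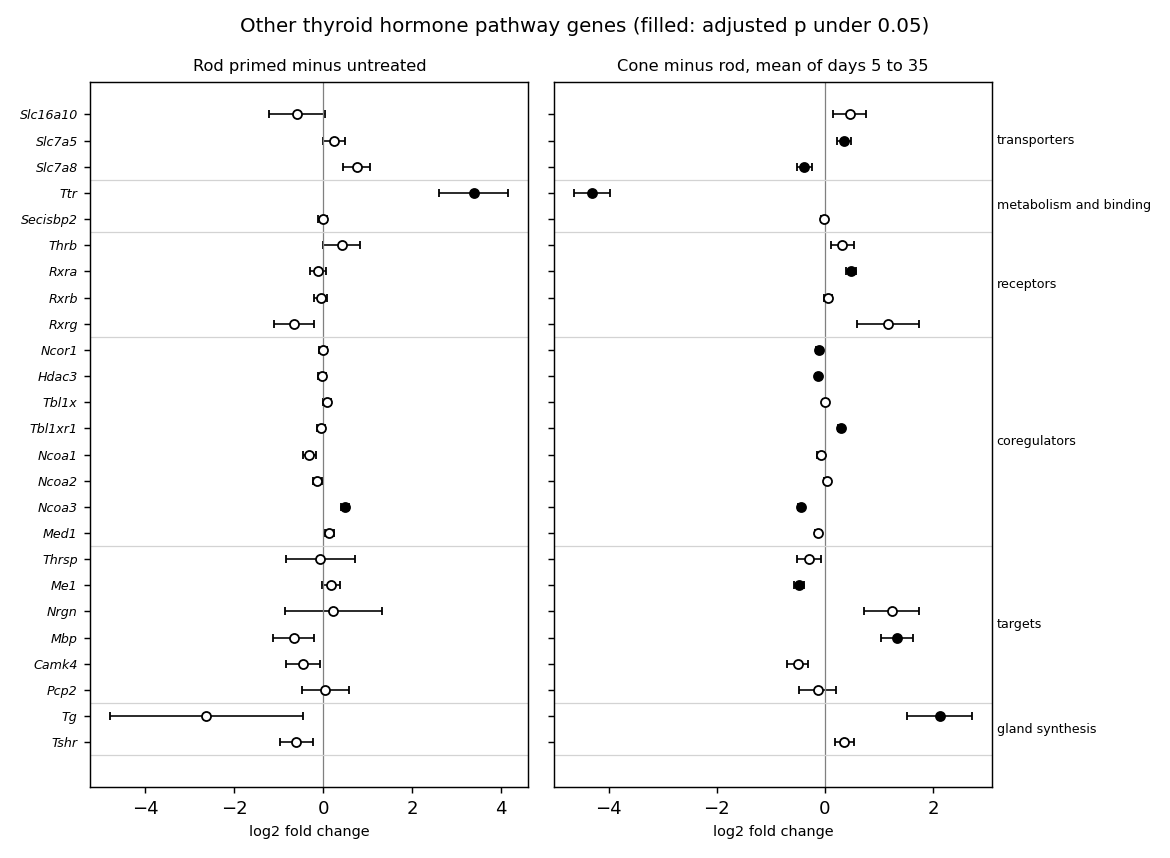
Log2 fold change with standard error of 25 of the tested pathway genes, on rod priming (left) and for cone minus rod over the mean of days 5 to 35 (right), grouped by role and filled where the adjusted p is under 0.05. Ttr stands out on both sides, at 3.39 on rod priming and at -4.31 in cone minus rod.

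By the root mean square difference of mean-centred log2 CPM over the 11 group means, Thra was closest to Gal3st3 (0.11) and Mkrn1 (0.12), and Crym to Prkar1b (0.20) and Mtmr7 (0.22). The genes nearest to Dio2 were Agt (0.49), the angiotensinogen gene, and Cdh19 (0.55), and those nearest to Dio3 were Alcam (0.36) and Mbd1 (0.40). Klf9 was nearest to Slc1a3 (0.54), which encodes a glial glutamate transporter and is on the Müller glia list, and to Plk5 (0.55). Hr was nearest to Bmp3 (0.89) and Rdh12 (0.92), a retinal retinol dehydrogenase. The distance between Klf9 and Hr was 0.99, where the median distance from Hr to all candidate genes was 2.08. The root mean square spread of the 11 means was 2.04 for Hr and 1.24 for Klf9. Distances of members with unlike spread cannot be compared directly. The 11 means come from shared libraries and the distances are descriptions.

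Cell type markers moved over the same days as the members. Mesenchyme or fibroblast markers summed to 3.33 to 21.9 CPM in untreated libraries, 519 to 3635 CPM on cone day 35 and 224 to 736 CPM on rod day 35, with 7 of 7 genes above the floor in every day 35 library. Microglia markers summed to 11.9 to 58.3 CPM on cone day 35 and 0.68 to 1.36 CPM on rod day 35. Müller glia markers already differed between primed groups, at 623 to 835 CPM in cone primed and 1229 to 1491 CPM in rod primed libraries, and Hr was called between the same groups. On day 5, when Hr and Klf9 had their highest means, photoreceptor markers summed to 1248 to 1552 CPM in cone and 631 to 1053 CPM in rod libraries, and on day 12 to 68.3 to 270 and 69.7 to 876 CPM. The part of these shifts in the results was not tested.

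**Figure D5:**
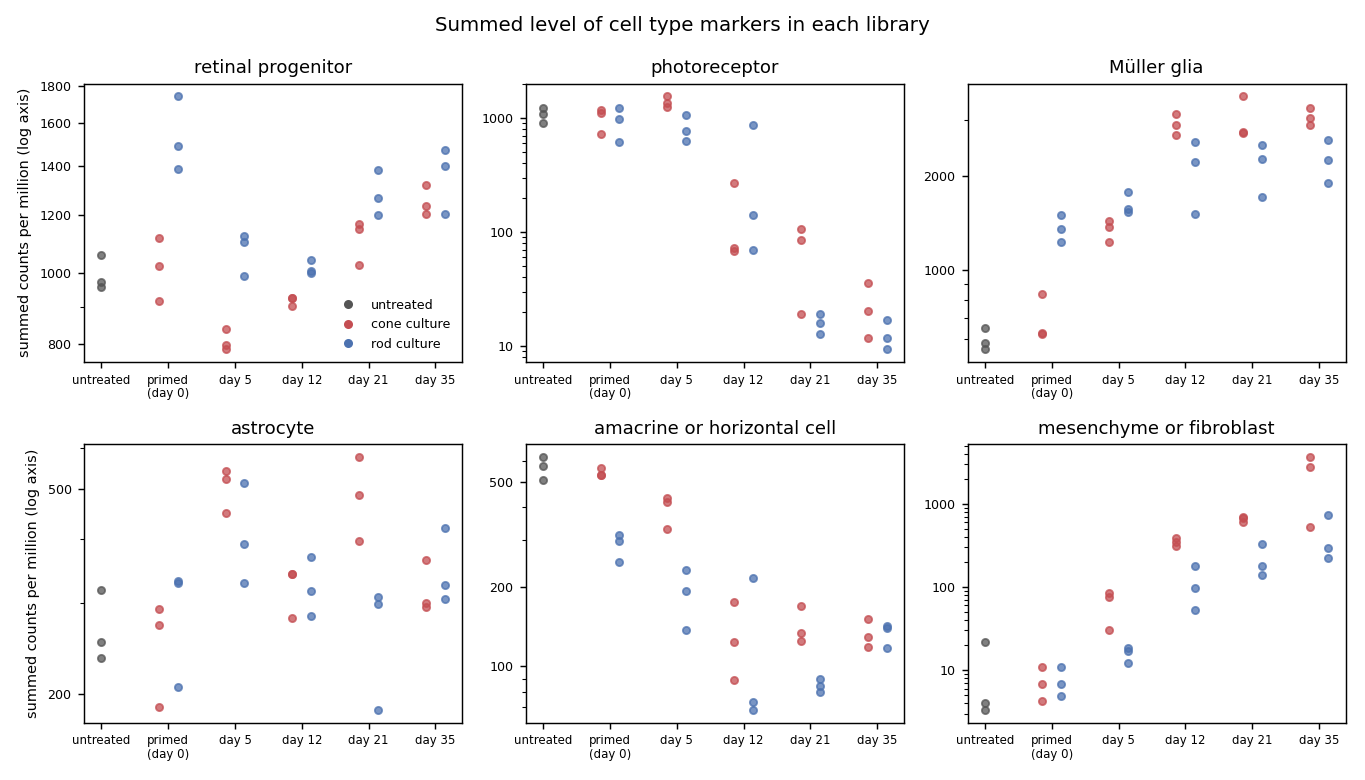
Summed CPM of 6 marker lists in each library by day (log axes), cone in red, rod in blue and untreated in grey. Photoreceptor markers fall after day 5 in both arms, to 9.38 to 35.5 CPM on day 35, while Müller glia and mesenchyme markers rise, and rod day 12 has 1 library at 876 CPM of photoreceptor markers.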

How the data were processed

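Total RNA was sequenced from 33 libraries, whose groups follow the treatment and day in their labels. Raw counts per gene were deposited by the authors, and per the file headers the deposited abundance tables give per-base coverage, FPKM and TPM. The submitters' processing notes name HISAT2, StringTie, HTSeq and GRCm38; versions, roles and strand setting are not given in the sources used here. Positions are those of the abundance tables on GRCm38.

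Counts were analysed with edgeR 4.0.16 (R 4.3.3, limma 3.58.1). Of 32488 genes with a count, filterByExpr by group at a minimum count of 10 left 18150. After TMM scaling, a single quasi-likelihood model was fitted to all libraries. Genes assigned 26.9 to 34.9% of counted reads. Benjamini-Hochberg adjusted p-values cover all genes of a comparison. DESeq2 1.42.0, voom, other filters and scaling, TPM (log2 with a pseudocount of 1) and left-out libraries were alternatives. FPKM and coverage were not used. Comparisons with day 5 within an arm were added after the levels were seen.

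The members and gene lists were chosen with earlier results of these data known. Members are always named, other genes by list. Of lists over 6 genes, the named genes come from the 3 of smallest p in cone minus rod over the mean of days; a few listed genes are not reported here. The 2 genes of most similar pattern come from those whose log2 CPM averaged 1 or more.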

Additional observations from a re-analysis of the deposited data

Results flagged for a closer look

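The difference between cone and rod cultures changed with day for 3 of the 6 genes by edgeR's test over day 0 and the 4 later days, against 9.22% of all genes. For Hr (adjusted p = 0.00641) the estimate went from -1.34 in primed cells to 0.50 on day 5 and 1.51 on day 35. For Thra (adjusted p = 0.0306) it went from 0.66 in primed cells to -0.48 on day 12 and -0.09 on day 35. For Dio2 (adjusted p = 0.0368) it was -1.81 ± 1.17 in primed cells, where counts were at or near the floor. It was -2.05 on day 5, -2.30 on day 12 and -0.03 on day 35. With any replicate number left out of every group, the calls for Hr and Thra were lost. In those fits 54 to 1322 of all genes were called in this test, against 1674 with all libraries. The Dio2 call was lost in some of these fits, as given above. By voom the call was lost for Dio2 (adjusted p = 0.592), kept for Hr and Thra, and gained for Crym (0.00416).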

How the results depend on the processing

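Counts of called members moved under a few settings, and so did the number of all genes called. On the deposited TPM, 27 genes were called in cone minus rod at day 0, against 1320 by edgeR over all libraries. On rod priming TPM called 46, against 1864. Voom called 3200 at day 0 and 3768 on rod priming. The member counts below are to be read beside these moves. On the deposited TPM, none of the 6 was called in the cone minus rod comparisons at day 0, 5, 12, 21 or 35 or over the mean of days, in rod priming or in the change with day (0 each); 1 was called in cone day 12 and 35 and rod day 12, 21 and 35 against primed cells and in both rod comparisons with day 5, and 2 in cone day 21 and both cone comparisons with day 5. TPM and counts per length agreed poorly across genes with at least 100 counts (Spearman 0.331 to 0.437 by library), and 20.7 to 34.5% of those genes had a TPM under 0.1; the cause was not tested. Cone minus rod on day 5 called 2 with the replicate block, voom or DESeq2, and 3 when fitted to its own 6 libraries; day 12 called 2 with voom and 0 in its own libraries; day 21 called 3 with voom and 2 in its own libraries. Rod day 35 against primed called 5 with voom, and rod day 12 against day 5 called 1 in its own libraries. With 1 library or replicate left out, the number called ran from 0 to 1 at day 0, 0 to 1 on day 5, 1 to 2 on day 12, 0 to 1 on day 21, 1 to 2 on day 35, 2 to 4 over the mean of days, 0 to 1 for the change with day, 1 to 3 for rod priming, 3 to 5 for rod day 12 against primed, and 1 to 2 for rod day 12 against day 5. The 5 for rod day 12 came without rod replicate 2. Equal counts can hide exchanged calls: voom lost Dio2 in cone day 5 against primed (adjusted p = 0.0761) and cone day 12 against day 5 (0.0864) and Klf9 on rod priming (0.0567), and gained Crym at day 0 (0.0184) and on rod priming (0.0312), while in its own libraries day 35 lost Crym (0.0932) and gained Dio3 (0.0224).

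Replicate numbers showed little pairing of the libraries on average. Same-numbered libraries of different groups had a mean correlation of deviations of 0.0352 (-0.359 to 0.661, with 60 of 165 pairs over 0.1). Other pairs had a mean of -0.0179 (-0.662 to 0.606, with 90 of 330 over 0.1). These means cannot show whether part of the libraries was paired. With the replicate block Klf9 was called in cone minus rod on day 5 (adjusted p = 0.0498), and the number of called members changed in no other comparison.

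Among the values given here and the time course of Thra, signs that turned on TPM were, as log2 fold changes, Crym cone minus rod day 21 (-0.73), Dio2 (0.26) and Klf9 (0.89) day 21, Thra day 35 (0.40) and mean of days (0.066), Klf9 on cone priming (-0.39) and rod priming (-0.18), Thra cone day 5 (0.99), 12 (0.77), 21 (1.13) and 35 (1.30) and rod day 5 (1.38), 12 (1.59), 21 (1.45) and 35 (1.36) against primed, Klf9 rod day 21 (-0.21), Hr rod day 35 (-0.0062), Thra cone day 35 (0.30) and rod day 12 (0.21) against day 5 and Dio3 rod day 35 against day 5 (-0.18). With voom, uncalled estimates turned for Dio3 day 0 (1.03), Dio2 day 35 (0.11), Thra day 35 (0.0046), Thra mean of days (0.0057) and Thra cone priming (0.026). Klf9 day 35 became -0.0054 under a filter at a mean of 1 CPM and -0.0087 in its own libraries. Leaving out 1 library, uncalled cone minus rod estimates ran from -0.11 to 0.79 for Crym day 12, -0.55 to 0.065 for Dio2 day 21, -0.47 to 0.18 for Dio2 day 35, -1.88 to 2.04 for Dio3 day 0, -0.087 to 0.69 for Hr day 12, -0.16 to 0.30 for Klf9 day 12, -0.15 to 0.33 for Klf9 day 35, -0.025 to 0.28 for Thra day 21, -0.18 to 0.051 for Thra day 35 and -0.097 to 0.053 for its mean of days, and -0.098 to 0.069 for Thra on cone priming. Depth limits Dio3, and Dio2 before culture.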
